A study of Mus musculus with 6 samples.

Results

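Smooth muscle cells wrap arteries and arterioles, and pericytes sit on capillaries. Together they form the mural cells of the vessel wall. The genes described here are 10 markers of these cells, taken as a list of 4 contractile smooth muscle genes (Acta2, Tagln, Myh11 and Cnn1) and 6 pericyte genes (Rgs5, Pdgfrb, Kcnj8, Abcc9, Cspg4 and Notch3). They are 10 of 19505 genes with a symbol on the array, and each was found by its symbol as exactly 1 array feature. Their levels were read in RNA from the whole hearts of 6 male mice with Clariom S mouse arrays. Each heart had 1 array, and each of the 3 groups had 2 hearts. TTg hearts had the genotype Tcf21iCre/Tomato/MGTH2A and were taken 3 months after myocardial infarction. Ctrl hearts had the genotype Tcf21iCre/Tomato and were taken 3 or 2 months after infarction. All mice carried the Cre and the Tomato reporter, were 8 weeks old at surgery and had the left coronary artery tied. Any with an ejection fraction above 45% on day 2 were removed.

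MGTH2A is a transgene that encodes Mef2c, Gata4, Tbx5 and Hand2, transcription factors of the heart used to turn scar fibroblasts towards a cardiomyocyte state. Tcf21 marks the fibroblast lineage of the heart, so the Cre is meant to act in fibroblasts and not in mural cells. Smooth muscle cells contract through actin, myosin and their regulators, whose genes are switched on by serum response factor (Srf) with its coactivator myocardin (Myocd) at DNA elements called CArG boxes. Pericytes are kept on capillaries by PDGF-B from the endothelium acting on their receptor Pdgfrb, and Notch3 receives Notch ligands from neighbouring endothelial cells. Both lists also contain genes used outside mural cells. Acta2 is made by myofibroblasts and by immature cardiomyocytes, Tagln by activated fibroblasts, and Abcc9 by cardiomyocytes, where its protein is part of the sarcolemmal ATP-sensitive potassium channel.

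The values are log2 signals per feature as deposited, and medians over all 22206 features lay between 4.91 and 5.0 on the 6 arrays. Differences are given as log2 differences of group means ± SE with the 95% interval, from limma fitted to all 6 arrays, with n = 2 hearts in each group. A call needed a Benjamini-Hochberg adjusted p under 0.05 over all 22206 features. The 7 ventricular cardiomyocyte markers, which define the tissue, averaged between 18.09 and 18.57 on the arrays. Markers of atrial cardiomyocytes did not form a steady background. All 5 were measured, and their mean was 14.95 and 13.78 in TTg hearts, 12.57 and 7.56 in Ctrl hearts at 3 months, and 11.98 and 13.30 in Ctrl hearts at 2 months, and its part in the results was not tested. Replicate 2 of Ctrl at 3 months stood apart, with Myl7, a myosin light chain of the atria, at 3.45 against 9.73 to 12.39 on the other 5 arrays. In RNA of whole hearts, fewer cells of a type and less RNA per cell cannot be told apart.

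All 10 genes had a mean above 3.65, the 30th percentile of features, and their values ran between 4.18 and 15.43. Cnn1 and Notch3 had the lowest means, 4.56 and 4.98, where the array medians lay between 4.91 and 5.0. The 10 genes differed widely in how steady they were. Acta2 covered 3.19 log2 units over the 6 arrays, Tagln 2.35 and Abcc9 2.23, whereas Rgs5, a regulator of G protein signalling and a classical pericyte marker, covered 0.68. Hearts of the same group differed most in the same genes. The pooled SD within groups was 0.96 for Tagln, 0.86 for Abcc9 and 0.84 for Acta2, larger than in 98.5%, 97.8% and 97.7% of features. Myh11, Kcnj8 and Notch3 were the steadiest within groups, at SDs of 0.13, 0.11 and 0.11, with 11.2%, 7.30% and 8.04% of features below them.

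**Figure D1:**
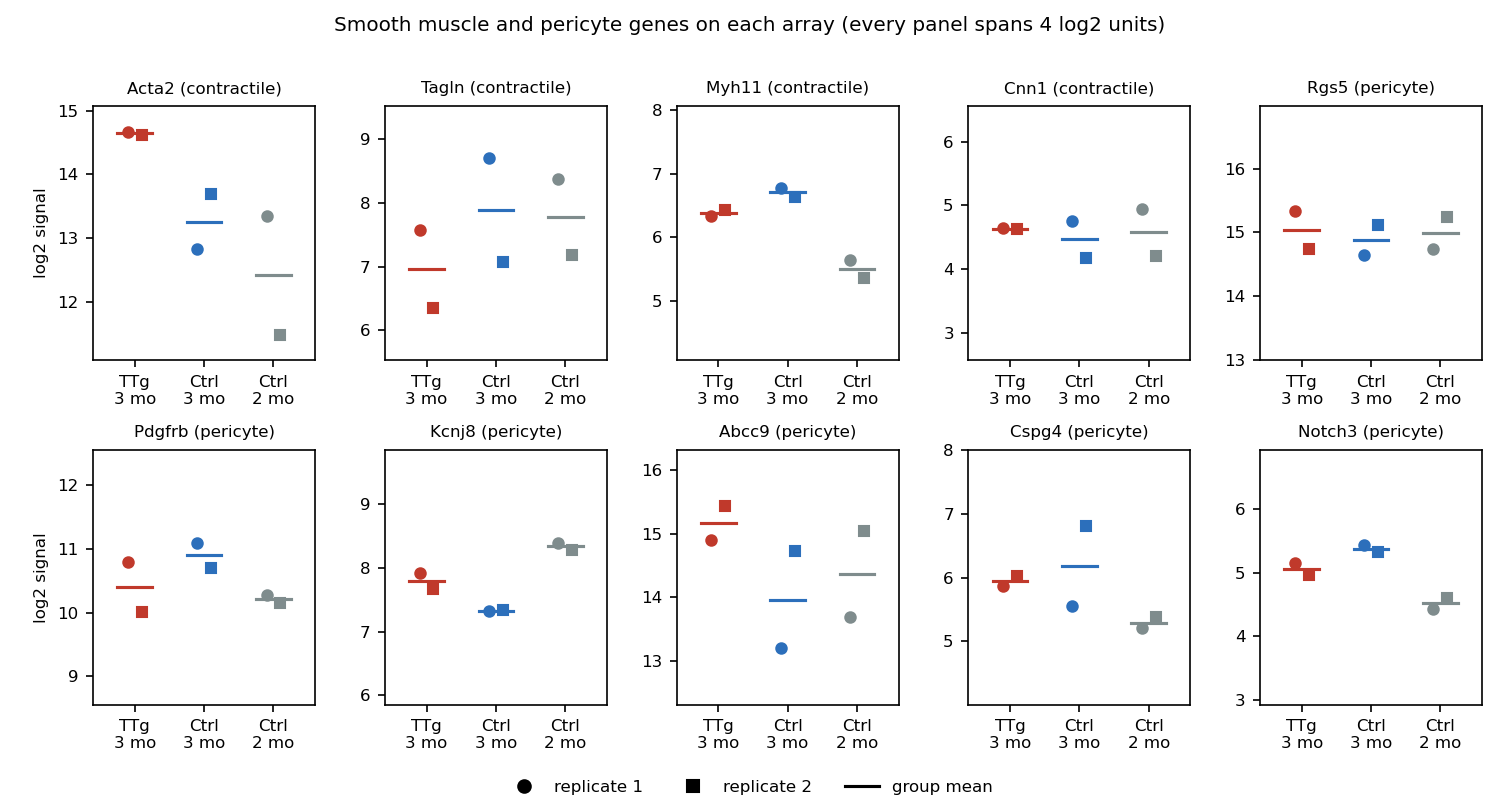
Log2 signal (vertical axis, 4 log2 units in every panel) of the 10 genes on each array, with TTg at 3 months, Ctrl at 3 months and Ctrl at 2 months from left to right; circles are replicate 1, squares replicate 2, and lines group means of 2 hearts. Acta2 stands highest in both TTg hearts, Myh11 and Notch3 lowest in both Ctrl hearts at 2 months, and Kcnj8 highest there, while the Tagln and Abcc9 values within a group lie far apart.

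The comparison of TTg with Ctrl hearts at 3 months shows how these vessel genes stood when MGTH2A was present in the late scar. None of the 10 genes passed limma's test, as was so for all but 1 of the features (percent called 0.00450). At an unadjusted p under 0.05 there was 1 member, Acta2, where 7.47% of all features reached that level. In 5 of the 10 genes the 2 TTg and the 2 Ctrl values did not overlap, and 38.4% of all features were separated in this way. Acta2, Kcnj8 and Abcc9 were higher in TTg, as were 19.1% of features, and Myh11 and Notch3 lower, as were 19.3%. The members' share is near that background. The genes did not divide by cell type either, since each of the 2 lists had members with higher and members with lower means in TTg. The median difference was −0.08 for the 4 contractile genes and −0.04 for the 6 pericyte genes, against 0.01 over all features.

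Acta2 encodes smooth muscle alpha-actin, the thin-filament actin of smooth muscle. Its values were 14.67 and 14.62 in TTg hearts, 12.82 and 13.69 in Ctrl hearts at 3 months, and 13.35 and 11.48 in Ctrl hearts at 2 months. Both TTg hearts were higher than all 4 Ctrl hearts. The TTg mean exceeded the Ctrl mean at 3 months by 1.39 ± 0.59 (interval 0.01 to 2.77, 2.62-fold, unadjusted p = 0.0493, limma), and the adjusted p was 0.665. The difference was 0.95 without replicate 1 of Ctrl at 3 months and 1.82 without replicate 2. The 250 bases before the Acta2 start are shown because CArG boxes next to the gene are the textbook route of its control, and the capitals mark the matches described after the sequence (RefSeq, GRCm38.p6, chr19:34255374-34255623, minus strand, 5′ to 3′).
Acta2: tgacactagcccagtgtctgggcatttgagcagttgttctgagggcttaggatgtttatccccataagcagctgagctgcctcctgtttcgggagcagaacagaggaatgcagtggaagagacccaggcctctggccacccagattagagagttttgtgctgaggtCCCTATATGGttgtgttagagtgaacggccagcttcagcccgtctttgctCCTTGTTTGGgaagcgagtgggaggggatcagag

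A CArG box was searched on both strands as 2 C, then 6 bases that are A or T, then 2 G. No member's window held a strict match, while 1.47% of 32851 promoter windows did. With 1 core base allowed to be C or G, a looser search added after the strict one found none, the Acta2 window had 2 matches. CCCTATATGG lies 84 to 75 bases before the start and CCTTGTTTGG 34 to 25 bases before it, and the motifs do not overlap. Of all windows, 8.59% held a match of this kind, and none of the other 6 genes with a window did. Windows of 7 of the 10 genes were searched, and those of Tagln, Myh11 and Pdgfrb were not. Of the contractile genes, only Acta2 and Cnn1 were thus searched.

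The other contractile genes had lower or nearly level means in TTg hearts. Tagln, transgelin, an actin-binding protein of smooth muscle, was at 7.57 and 6.35 in TTg hearts and at 8.70 and 7.07 in Ctrl hearts at 3 months, so the groups overlapped. Its mean was lower in TTg by a difference of −0.92 ± 0.66 (interval −2.48 to 0.63, adjusted p = 0.804). The size of this value depended on the hearts used, being −0.11 without replicate 1 of Ctrl at 3 months, −1.74 without replicate 2 of Ctrl, −0.31 without replicate 2 of TTg and −1.54 without replicate 1 of TTg. Myh11, the smooth muscle myosin heavy chain and the contractile gene most restricted to this cell type, was at 6.34 and 6.43 in TTg against 6.77 and 6.64 in Ctrl. Both TTg values lay under both Ctrl values, but the difference of −0.32 ± 0.23 (interval −0.87 to 0.23, adjusted p = 0.807) was exceeded in size by 36.6% of features. Cnn1, calponin 1, a thin-filament regulator, was at 4.64 and 4.63 in TTg and at 4.76 and 4.18 in Ctrl. The Ctrl values lay on either side of the TTg pair, and the difference was 0.16 ± 0.33 (interval −0.61 to 0.94, adjusted p = 0.947), with the sign turning to −0.13 without replicate 2 of Ctrl.

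Acta2 was also set against its partners within each array, as a log2 ratio. Centred on its mean over the 6 arrays, the log2 ratio of Acta2 to Tagln was 1.20 and 2.37 in TTg hearts, −1.78 and 0.72 in Ctrl hearts at 3 months, and −0.92 and −1.60 in Ctrl hearts at 2 months. The ratio of Acta2 to Myh11 was 1.09 and 0.95 in TTg, −1.19 and −0.19 in Ctrl hearts at 3 months, and 0.47 and −1.12 in those at 2 months. In both ratios the 2 TTg hearts stood above all 4 Ctrl hearts, as they did in Acta2 alone, whose values the ratios share. The pooled SD within groups was 1.16 for the ratio to Tagln and 0.77 for the ratio to Myh11, and these ratios were not tested.

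Among the pericyte genes, Abcc9 and Kcnj8 had higher means in TTg hearts. Kcnj8 encodes Kir6.1, the pore of the ATP-sensitive potassium channel of mural cells, and Abcc9 its sulphonylurea receptor subunit SUR2. The 2 genes are neighbours on chromosome 6 with 0 protein-coding genes between them. Abcc9 was at 14.90 and 15.43 in TTg and at 13.20 and 14.72 in Ctrl at 3 months, a difference of 1.20 ± 0.60 (interval −0.20 to 2.61, 2.31-fold, unadjusted p = 0.0826, adjusted p = 0.700). Both TTg values were above both Ctrl values, yet the difference was 0.44 without replicate 1 of Ctrl and 1.96 without replicate 2. Kcnj8 was at 7.92 and 7.67 in TTg and at 7.32 and 7.34 in Ctrl, a difference of 0.46 ± 0.23 (interval −0.07 to 1.0, 1.38-fold, adjusted p = 0.700). Here each pair of replicates lay close together. The 250 bases before each start are shown since these genes are neighbours, and neither window holds a CArG box or the sequence GTGGGAA, the core of the site of the Notch effector Rbpj (RefSeq, GRCm38.p6, minus strand, chr6:142571615-142571864 for Kcnj8 and chr6:142702275-142702524 for Abcc9).
Kcnj8: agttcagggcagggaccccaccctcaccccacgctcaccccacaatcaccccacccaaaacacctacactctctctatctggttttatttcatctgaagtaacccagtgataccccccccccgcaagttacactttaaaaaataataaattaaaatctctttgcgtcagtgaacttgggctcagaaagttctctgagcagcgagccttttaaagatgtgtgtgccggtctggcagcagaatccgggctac
Abcc9: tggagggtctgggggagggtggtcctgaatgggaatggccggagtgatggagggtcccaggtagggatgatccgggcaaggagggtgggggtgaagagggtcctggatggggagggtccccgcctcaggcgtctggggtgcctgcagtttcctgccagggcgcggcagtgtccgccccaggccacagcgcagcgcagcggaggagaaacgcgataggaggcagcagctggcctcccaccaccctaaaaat

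GTGGGAA, searched on both strands, was in none of the 7 windows and in 5.42% of all windows. Both channel subunits had their lowest mean in Ctrl hearts at 3 months, and only Kcnj8 was separate between all 3 groups. Kcnj8 was highest in Ctrl hearts at 2 months, at 8.39 and 8.29. Abcc9 was at 13.69 and 15.04 in Ctrl hearts at 2 months, overlapping both other groups. The other subunits of this channel family, Kcnj11 (Kir6.2, the cardiomyocyte pore) and Abcc8 (SUR1), had differences between TTg and Ctrl at 3 months of 0.39 ± 0.49 and 0.16 ± 0.46, with overlapping values (adjusted p = 0.904 and 0.967).

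The remaining pericyte genes had means that were lower or nearly level in TTg hearts. Pdgfrb, the PDGF-B receptor, was at 10.79 and 10.01 in TTg and at 11.10 and 10.70 in Ctrl, a difference of −0.50 ± 0.32 (interval −1.25 to 0.25, adjusted p = 0.778). The groups overlapped, and the difference was −0.11 without replicate 2 of TTg and −0.89 without replicate 1 of TTg. Notch3 was at 5.15 and 4.96 in TTg against 5.43 and 5.33 in Ctrl, a difference of −0.32 ± 0.23 (interval −0.86 to 0.21, adjusted p = 0.798). These groups were separate. Cspg4, the proteoglycan NG2 on the pericyte surface, was at 5.86 and 6.03 in TTg and at 5.55 and 6.81 in Ctrl, with a difference of −0.24 ± 0.40 (interval −1.19 to 0.72, adjusted p = 0.939) that became 0.39 without replicate 2 of Ctrl and −0.87 without replicate 1. Rgs5 was at 15.33 and 14.74 in TTg and at 14.65 and 15.11 in Ctrl, a difference of 0.16 ± 0.32 (interval −0.61 to 0.92, adjusted p = 0.949). The values of the 2 groups interleave.

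**Figure D2:**
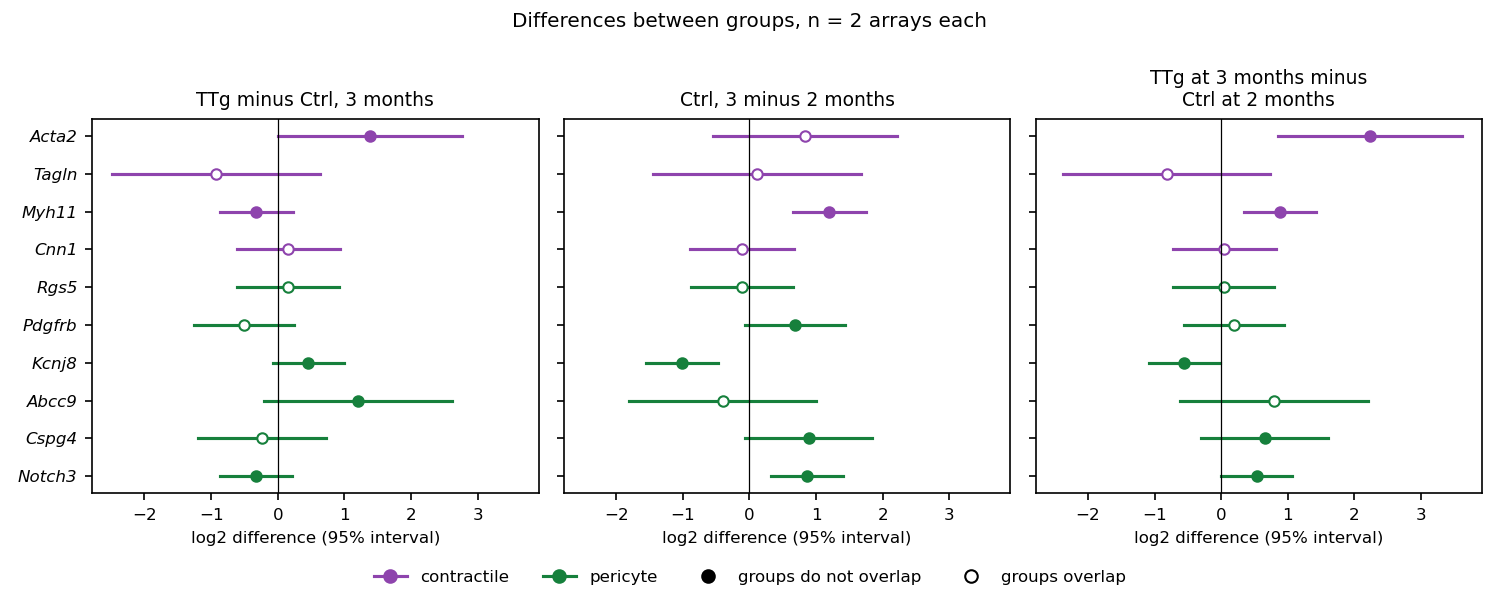
Log2 differences of group means (horizontal axis) with 95% intervals from limma for the 10 genes, n = 2 hearts per group, in the comparisons TTg minus Ctrl at 3 months, Ctrl at 3 minus 2 months and TTg at 3 months minus Ctrl at 2 months; filled points are genes whose groups do not overlap. Acta2 leads the left panel at 1.39, Myh11 the middle panel at 1.20 with Kcnj8 opposite at −1.01, and Acta2 the right panel at 2.23.

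Further markers of these cells, and genes that act on the members, were read from lists of related genes. Of 17 other contractile and cytoskeletal genes of smooth muscle, all measured, 9 had a higher and 8 a lower mean in TTg than in Ctrl at 3 months, with a median of 0.02 and none past the test. The largest differences were Pcp4l1, a small calmodulin-binding protein, at 0.94 ± 0.41 and Mustn1 at −0.70 ± 0.40. Among the 17, Casq2 had values of 17.41 to 17.86, near the ventricular cardiomyocyte means of 18.09 to 18.57. Of 11 measured of 15 other pericyte genes, 6 were higher and 5 lower (median 0.00). Mcam, the adhesion molecule CD146, was at 8.54 and 8.14 in TTg against 9.60 and 8.82 in Ctrl, a difference of −0.87 ± 0.34 (adjusted p = 0.661). Pde5a, the cGMP phosphodiesterase that sets vessel tone, had the opposite sign at 0.70 ± 0.26 (adjusted p = 0.661).

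Regulators of the contractile genes had a median difference of −0.34 over 9 genes, 3 higher and 6 lower. Srf itself was at 10.53 and 10.29 in TTg and at 10.44 and 11.11 in Ctrl at 3 months (difference −0.36 ± 0.31), and Myocd at 7.35 and 8.23 against 8.04 and 8.48 (−0.47 ± 0.42). Both overlapped between the groups. The cofactor Csrp1 had a difference of −0.88 ± 0.44, Fhl1 one of −0.82 ± 0.47 and Fhl2 one of 0.75 ± 0.36, with groups that did not overlap. In the PDGF family 3 of 4 measured ligands had lower means, and Pdgfb, the ligand of Pdgfrb, differed by −0.16 ± 0.37. Notch pathway genes had lower means in 12 of 13, as had 48.4% of all features, with a median of −0.27. In 6 of the 13 the groups were separate with TTg lower, as in 19.3% of features. The mean of the list, each gene centred on its own mean, was −0.09 and −0.17 in TTg hearts. It was 0.31 and 0.06 in Ctrl hearts at 3 months, and −0.03 and −0.07 in Ctrl hearts at 2 months. The targets Heyl (7.12 and 6.27 in TTg against 8.02 and 7.46 in Ctrl, −1.04 ± 0.41) and Hes1 (4.88 and 4.62 against 5.49 and 5.27, −0.63 ± 0.24) and the ligand Jag1 (−0.50 ± 0.25) had separate groups, whereas the endothelial ligand Dll4 differed by −0.03 ± 0.39. No gene of these lists passed limma's test, and Heyl and Hes1 each had an adjusted p of 0.661.

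Markers of other cells differed between hearts of the same group in step with some members. Tagln, Cnn1 and Pdgfrb were higher in replicate 1 than in replicate 2 of all 3 groups, which was so for 14.2% of all features. The same heart of each pair had the higher mean of the 6 measured of 7 fibroblast markers, at 11.47 and 10.58 in TTg, 12.79 and 11.80 in Ctrl hearts at 3 months, and 13.02 and 11.25 in Ctrl at 2 months. It also had the higher mean of the endothelial, activated fibroblast and macrophage markers, and the lower mean of the ventricular cardiomyocyte markers. Because several marker lists share this order, the order of replicates cannot tell these cell types apart. Abcc9 and Cspg4 ran the other way, with replicate 2 higher in all 3 groups, as in 13.8% of features. The ventricular cardiomyocyte mean was also higher in replicate 2 each time, at 18.51 and 18.57 in TTg, 18.09 and 18.50 in Ctrl hearts at 3 months, and 18.11 and 18.36 in Ctrl at 2 months. The part of these cells in the values of single hearts was not tested.

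Between the groups, the 6 activated fibroblast markers averaged 6.62 and 5.19 in TTg, 8.99 and 7.62 in Ctrl hearts at 3 months, and 7.95 and 6.57 in Ctrl at 2 months. Postn, a matrix protein of the healing scar, was at 10.76 and 7.58 in TTg against 13.05 and 11.47 in Ctrl at 3 months. Of the 6 markers, 5 had a lower mean in TTg than in Ctrl at 3 months. The exception was Fap, the fibroblast activation protein, at 7.53 and 7.87 in TTg against 7.13 and 7.61 in Ctrl (0.33 ± 0.27). Acta2, which is also a myofibroblast gene, had its highest values in the TTg hearts. The measured 5 of 6 macrophage markers averaged 8.92 and 8.09 in TTg and 10.95 and 9.34 in Ctrl at 3 months. The 7 measured of 8 endothelial markers averaged 11.40 and 10.83 in TTg and 11.35 and 11.01 in Ctrl hearts at 3 months, and these overlapped between the groups. By mean signal 1 activated fibroblast marker was dim, and none of the fibroblast, macrophage, endothelial and ventricular cardiomyocyte markers was. Their part in the members' differences was not tested.

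**Figure D3:**
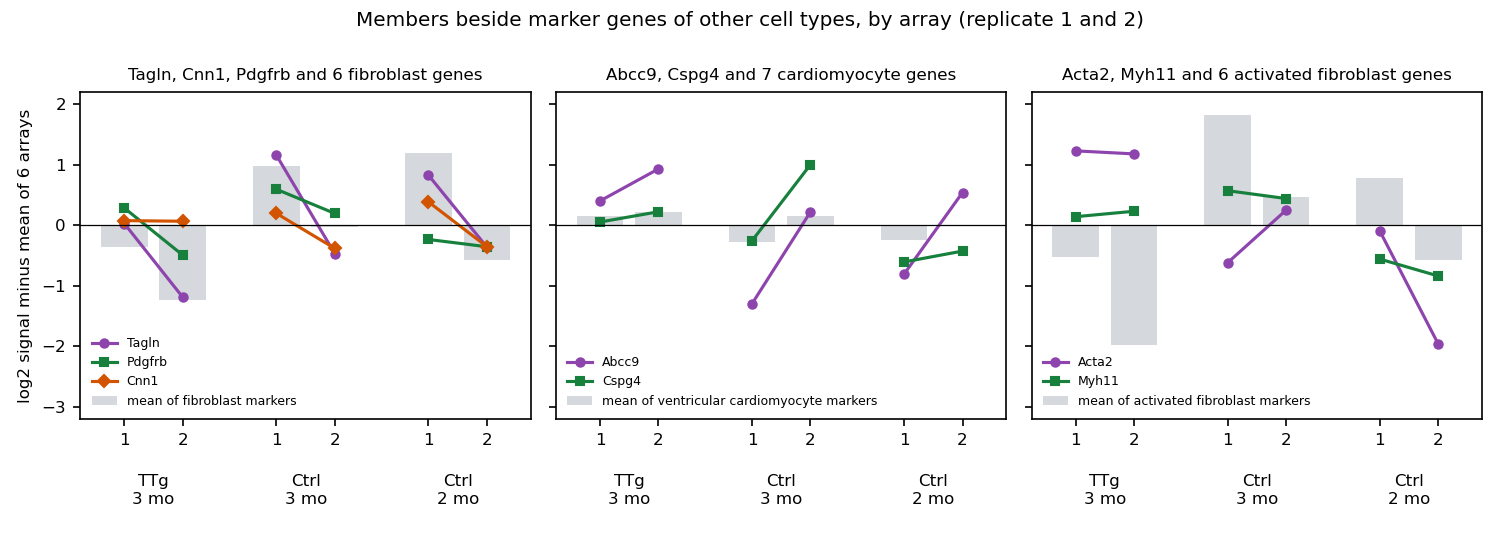
Log2 signal minus the mean over 6 arrays (vertical axis) for members (points joined within a group) and the mean of marker genes (bars) on each array, with replicates 1 and 2 of TTg at 3 months, Ctrl at 3 months and Ctrl at 2 months from left to right. Tagln, Cnn1 and Pdgfrb stand higher on the array with the higher fibroblast mean in every group, and Abcc9 and Cspg4 on the array with the higher cardiomyocyte mean. Acta2 is highest in both TTg hearts, where the activated fibroblast bars stand at −0.53 and −1.97, beside −0.58 in replicate 2 of Ctrl at 2 months.

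Ctrl hearts at 3 months were then set against Ctrl hearts at 2 months, to compare these genes between the times without the transgene. Again none of the 10 genes passed limma's test (percent called 0.00450 over all features). Myh11, Notch3 and Kcnj8 had an unadjusted p under 0.05, 3 of 10 genes where 8.00% of features reached that level. Groups did not overlap in 5 genes, beside 35.7% of features. Myh11, Pdgfrb, Cspg4 and Notch3 were higher at 3 months, as were 18.3% of features, and Kcnj8 was lower, as were 17.4%. The median difference was 0.47 for the contractile and 0.29 for the pericyte genes, against 0.01 over all features. Both medians depended on single hearts. The contractile median was −0.29 without replicate 2 of Ctrl at 2 months and 1.02 without replicate 1, and the pericyte median was −0.04 without replicate 2 of Ctrl at 3 months.

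Myh11 was at 6.77 and 6.64 in Ctrl hearts at 3 months and at 5.64 and 5.36 at 2 months. The difference of 1.20 ± 0.23 (interval 0.66 to 1.75, 2.31-fold, unadjusted p = 0.00122) had an adjusted p of 0.396 and lay between 1.06 and 1.34 whichever heart was left out. Notch3 was at 5.43 and 5.33 against 4.43 and 4.61, a difference of 0.86 ± 0.23 (interval 0.32 to 1.40, 1.82-fold, adjusted p = 0.486). It had the same order, with no overlap, and kept a difference of at least 0.77 when any heart was left out. Pdgfrb differed by 0.69 ± 0.32 (interval −0.06 to 1.44, adjusted p = 0.648), with 11.10 and 10.70 at 3 months and 10.27 and 10.15 at 2 months. Cspg4 differed by 0.89 ± 0.40 (interval −0.06 to 1.84, adjusted p = 0.644), and this was 0.26 without replicate 2 of Ctrl at 3 months. Kcnj8 had the opposite sign, at 7.32 and 7.34 against 8.39 and 8.29, a difference of −1.01 ± 0.23 (interval −1.55 to −0.47, 2.01-fold, unadjusted p = 0.00293, adjusted p = 0.428).

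Kcnj8 was thus opposite in sign to the receptors Pdgfrb and Notch3, and the hearts of each group lay close together. The other 5 genes overlapped between the times. Acta2 differed by 0.84 ± 0.59, a value set by replicate 2 of Ctrl at 2 months, without which it was −0.10. Abcc9 differed by −0.40 ± 0.60, Tagln by 0.11 ± 0.66, Cnn1 by −0.11 ± 0.33 and Rgs5 by −0.11 ± 0.32, and each of these turned sign when some heart was left out.

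Several related genes had differences of like size between the times, though none passed the test. Srf was at 10.44 and 11.11 in Ctrl hearts at 3 months and at 9.27 and 9.73 at 2 months (1.27 ± 0.31, adjusted p = 0.476). Myocd was at 8.04 and 8.48 against 6.58 and 7.53 (1.20 ± 0.42, adjusted p = 0.551). Srf and Myocd, like Myh11, were higher in both Ctrl hearts at 3 months than in either at 2 months, as were 18.3% of features. Of the 9 regulators, 7 were higher and 2 lower (median 0.08), and the values of Tagln and Cnn1 overlapped between the times. Among the other pericyte genes 3 were higher and 8 lower at 3 months (median −0.21). Mcam was the exception in size, at 9.60 and 8.82 against 7.72 and 7.25 (1.72 ± 0.34, adjusted p = 0.396). Notch pathway genes were higher in 10 of 13 (median 0.12), as were 50.7% of all features, with Heyl at 0.89 ± 0.41. The same Ctrl hearts at 3 months entered the comparison with TTg with opposite sign, so this count and the 12 of 13 lower there are not independent. The other smooth muscle genes were higher in 7 and lower in 10 (median −0.07), which is not the direction of Myh11. Of the 7 measured endothelial markers, 4 had a higher and 3 a lower mean at 3 months (median 0.38). They ran from the receptor Kdr, at 13.81 and 14.40 against 12.41 and 12.79 (1.5 ± 0.33), to the sialomucin Emcn, at 12.89 and 11.97 against 13.80 and 13.01 (−0.97 ± 0.39). Their part in the members' differences was not tested.

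The comparison of TTg at 3 months with Ctrl at 2 months shares its arrays with the 2 comparisons above and differs in both genotype and time. No member passed, as no feature did, by limma's test (percent called 0), and 3 members and 9.71% of features had an unadjusted p under 0.05. Acta2 was higher in TTg by 2.23 ± 0.59 (interval 0.85 to 3.61, 4.69-fold, adjusted p = 0.351), a difference of 1.30 without replicate 2 of Ctrl at 2 months and 3.16 without replicate 1. Myh11 was higher by 0.88 ± 0.23 (interval 0.34 to 1.43, adjusted p = 0.351), and its TTg values lay between those of the 2 Ctrl groups. Kcnj8 was lower by a difference of −0.55 ± 0.23 (interval −1.08 to −0.01, adjusted p = 0.512), and Notch3 higher by 0.54 ± 0.23, both also placing TTg between the Ctrl groups. Groups did not overlap in 5 genes, beside 40.1% of features. Acta2, Myh11, Cspg4 and Notch3 were higher in TTg, as were 21.2% of features, and Kcnj8 was lower, as were 18.9%. Median differences were 0.47 for the contractile and 0.36 for the pericyte genes, against 0.02 over all features.

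Whether contractile and pericyte genes moved in opposite directions was read from the mean of each list on each array, every gene centred on its own mean. The contractile mean was 0.37 and 0.07 in TTg hearts, 0.33 and −0.04 in Ctrl hearts at 3 months, and 0.14 and −0.88 in Ctrl hearts at 2 months. The pericyte mean was 0.23 and 0.04 in TTg, −0.22 and 0.24 in Ctrl hearts at 3 months, and −0.31 and 0.02 in Ctrl at 2 months. For neither list did the TTg hearts separate from the Ctrl hearts at 3 months. The pooled SD within groups was 0.46 for the contractile and 0.24 for the pericyte mean, and with all 6 hearts the list medians had the same sign in each of the 3 comparisons. This did not hold when single hearts were left out. In TTg minus Ctrl at 3 months the contractile and pericyte medians were 0.17 and −0.18 without replicate 1 of Ctrl, −0.26 and 0.39 without replicate 2 of Ctrl, and −0.07 and 0.17 without replicate 2 of TTg. In Ctrl at 3 minus 2 months they were −0.29 and 0.45 without replicate 2 at 2 months, and 0.67 and −0.04 without replicate 2 at 3 months. Within each list the members' differences spread further apart than the 2 list medians.

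The features most like Acta2 and Abcc9, the members of each list with the widest range, were named by the root mean square distance of centred log2 values over the 6 arrays. Nearest to Acta2 was Iqgap2, a scaffold protein of the actin cytoskeleton, at a distance of 0.347. It was at 8.25 and 7.65 in TTg hearts, 6.34 and 6.60 in Ctrl hearts at 3 months, and 6.33 and 5.30 in Ctrl at 2 months. Fam122b (0.504), Irs1, an insulin receptor substrate (0.550), Akr1e1 (0.556) and Pnck (0.580) followed, and none of the 5 was a smooth muscle gene of the lists. Nearest to Abcc9 was Fhod3, a formin of the cardiomyocyte sarcomere, at a distance of 0.116, with 10.45 and 10.92 in TTg, 8.69 and 10.51 in Ctrl hearts at 3 months, and 9.40 and 10.56 in Ctrl at 2 months. Pdp2, a mitochondrial phosphatase (0.151), Hectd4 (0.158), Dsc2, a desmosomal cadherin (0.178), and Pank1, a kinase of coenzyme A synthesis (0.216), came next. These distances describe 6 arrays and have no test.

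**Figure D4:**
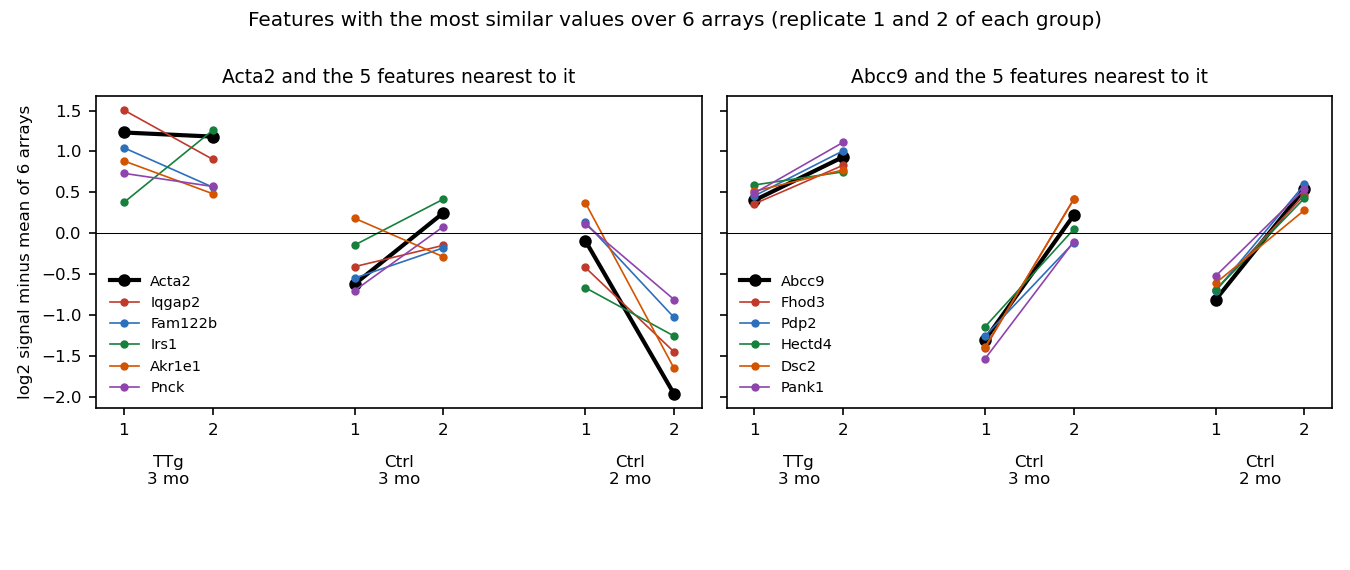
Log2 signal minus the mean over 6 arrays (vertical axis) of Acta2 (left) and Abcc9 (right) in black with the 5 features nearest to each, on replicates 1 and 2 of TTg at 3 months, Ctrl at 3 months and Ctrl at 2 months from left to right. The Abcc9 neighbours follow its low value in replicate 1 of both Ctrl groups closely, at distances of 0.116 to 0.216, and the Acta2 neighbours more loosely, at 0.347 to 0.580.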

How the data were processed

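RNA of 6 whole mouse hearts was labelled from 100 ng with an integrity number above 7.0, per the labels' protocols, and measured on 1 array per heart. The deposited values are log2 signals per feature. The submitters' processing notes name Transcriptome Analysis Console 4.0. The background, summary and normalization steps and the genome build are not given in the sources used here. Values near the top of the scale may be compressed, and the number of arrays limits the precision. Symbols came from the platform annotation: 19572 of 22206 features had 1 symbol and 2634 none, and no member had more than 1 feature.

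Groups came from genotype and time in the labels, and the hearts are described there as biological replicates. Limma 3.58.1 in R 4.3.3 was fitted to all features and all 6 arrays with 1 coefficient per group (3 residual and 4.13 prior degrees of freedom), with two-sided tests, Benjamini-Hochberg adjustment over all features and a threshold of 0.05. An exact permutation of 2 against 2 hearts gives no p below 0.333. The fit was tested on simulated data. All 10 members are named. In each related list up to 4 genes with the largest absolute difference of TTg minus Ctrl at 3 months are named, with the partners Kcnj11, Abcc8, Pdgfb, Jag1, Dll4, Myocd and Srf, and the text may use fewer. Casq2 is named as well, for its level. Markers of other cells were named by the same rule. The looser CArG search was added after the strict search was seen. The members and lists were chosen with earlier results of these data known. Alternatives were quantile normalization, a robust or intensity-trended prior, centring arrays on their medians, a filter on dim features, the 2 compared groups alone, a replicate block and leaving out each array.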

Additional observations from a re-analysis of the deposited data

How the results depend on the processing

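No member was called under any alternative, and the lowest adjusted p was 0.209. In the settings that left out no single heart, each of the 70 member values of a comparison kept its direction in all 3 comparisons. Only quantile normalization and median centring could turn a sign there. The other settings leave the difference of group means as it was. With 1 heart left out, the lone heart of a group is assumed to vary like the others. Then 4 of 60 member values turned sign in TTg minus Ctrl at 3 months. The counts were 9 of 60 in Ctrl at 3 minus 2 months and 4 of 60 in TTg at 3 minus Ctrl at 2 months. Each 60 includes fits without a heart of the group not compared, in which a difference cannot change. In TTg minus Ctrl at 3 months the ranges were −0.14 to 0.45 for Rgs5, −0.13 to 0.45 for Cnn1 and −0.87 to 0.39 for Cspg4. In Ctrl at 3 minus 2 months they were −0.48 to 0.26 for Cnn1, −0.10 to 1.78 for Acta2, −0.70 to 0.93 for Tagln, −0.37 to 0.14 for Rgs5 and −1.16 to 0.36 for Abcc9. In TTg at 3 minus Ctrl at 2 months they were −0.25 to 0.34 for Rgs5, −0.32 to 0.42 for Cnn1 and −0.20 to 0.58 for Pdgfrb. The cause was not tested.

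Median differences with 1 heart left out ran, in the same order of comparisons, from −0.26 to 0.17, −0.29 to 1.02 and 0.21 to 0.72 for the contractile genes and from −0.18 to 0.39, −0.04 to 0.45 and 0.12 to 0.55 for the pericyte genes. Over all features, 1 passed in TTg minus Ctrl at 3 months, against 2 with the compared groups alone, 11 with the replicate block and 0 to 2 with 1 heart left out. In Ctrl at 3 minus 2 months 1 passed, against 0 with the intensity trend, with quantile normalization and without dim features, and 0 to 6 with 1 heart left out. In TTg at 3 minus Ctrl at 2 months 0 passed in limma (2156 at an unadjusted p under 0.05), against 1 with the robust prior, 5 with the replicate block and 0 to 22 with 1 heart left out. Deviations of same-numbered hearts correlated at 0.12 to 0.136 over features, but the numbers mark different mice, so the block is a hint from the data only. With it Tagln, lower in TTg than in the same-numbered Ctrl heart at 3 months for both numbers, differed by −0.92 with an SE of 0.26 (adjusted p = 0.302, limma), and no member was called. The choice among repeated symbols gives no separate value, since no member had more than 1 feature.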

Other observations

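Relatives of Acta2 and Rgs5 had differences larger than those of most members. Acta1, the skeletal muscle actin that stressed cardiomyocytes make, was at 16.72 and 12.78 in TTg hearts, 18.57 and 19.30 in Ctrl hearts at 3 months, and 17.13 and 15.97 in Ctrl hearts at 2 months. TTg differed from Ctrl at 3 months by −4.18 ± 1.13 (n = 2, adjusted p = 0.661, limma), opposite in sign to Acta2 at 1.39. The centred log2 ratio of Acta2 to Acta1 was 1.26 and 5.15 in TTg, −2.44 and −2.30 in Ctrl hearts at 3 months, and −0.47 and −1.18 in those at 2 months. Both TTg hearts lay above all 4 Ctrl hearts in this ratio, as in Acta2 alone. Actb, a cytoplasmic actin, differed by −0.69 ± 0.40. The cardiac actin Actc1, at 19.71 to 19.79, lay near the top of the scale.

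Rgs2, which dampens signals of Gq-coupled receptors in smooth muscle and heart, was at 8.25 and 9.13 in TTg hearts, 6.73 and 7.94 in Ctrl hearts at 3 months, and 9.73 and 9.13 in Ctrl hearts at 2 months. The differences were 1.36 ± 0.48 for TTg minus Ctrl at 3 months and −2.10 ± 0.48 for Ctrl at 3 minus 2 months (adjusted p = 0.661 and 0.442, limma), the same signs as Kcnj8 showed at 0.46 and −1.01. Both comparisons use the same Ctrl hearts at 3 months, with opposite sign, so the signs are not independent. Rgs5 differed by 0.16 and −0.11 in these comparisons. The 5 RGS genes listed beside it had 1 higher and 4 lower means in TTg than in Ctrl at 3 months.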
